A study of Mus musculus with 12 samples.

Results

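The IL-6 and gp130 cytokine family was followed in skin wounds of mice through 10 genes, chosen by an exact match of the gene symbol: Il6, Lif, Osm, Il11 and Clcf1 (cytokines), Il6st, Il6ra, Lifr and Osmr (receptor chains) and Socs3 (a feedback inhibitor). They are 10 of the 55487 genes in each expression table, and all 10 were found and passed the filter on low expression in every comparison. The rule for the choice used no expression value, but it was set with earlier results of these data known. RNA came from cutaneous wounds of male C57BL/6JNarl mice aged 6 weeks, each with 2 full-thickness punch wounds on the back. Wounds received 200 µL of Pluronic F127 gel (P-F127, 25% in saline) once a day, either alone (sham group) or with 10 µM capsaicin (CAP, the pungent compound of chili peppers), and were taken at Day 3 or Day 6, with 3 libraries in each of the 4 groups. All groups carried the gel, and no library of unwounded or gel-free skin was analysed here. The wound was harvested with the skin around it. No source used here says whether the libraries of a group came from different mice, so p-values measure the spread between libraries only. The labels name no batch, and the day of harvest and the age of the wound cannot be told apart.

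Cytokines of this family signal through gp130, the receptor chain encoded by Il6st, which the family's receptor complexes share with few exceptions. IL-6 first binds its own receptor chain (Il6ra), leukemia inhibitory factor joins gp130 with LIFR, and oncostatin M joins it with OSMR. The joined chains switch on Janus kinases and the transcription factor STAT3, which turns on genes of the acute response to injury, among them Socs3, whose product binds gp130 and shuts the signal down. In skin wounds, IL-6 and oncostatin M come mainly from infiltrating leukocytes and from activated skin cells, and they act on keratinocytes, fibroblasts and endothelial cells.

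Expression is given as TPM, the share that the transcripts of a gene take among all transcripts of a library, corrected for gene length. Such shares keep no read numbers, and with unknown depth no counting error could be given. At 0.3 TPM or more, 18533 to 19325 genes per library were present. Keratinocyte and fibroblast markers were high in all libraries of this skin tissue, with sums of 32309 to 104374 TPM over 8 keratinocyte genes and of 10559 to 26522 TPM over 8 fibroblast genes. Replicate 2 of the CAP-treated wounds of Day 6 stood apart. It had the highest keratinocyte sum of all 12 libraries (104374 TPM, with 29718 TPM of Krt1 and 40801 TPM of Krt10). Its sums of neutrophil (357 TPM), macrophage (849 TPM) and endothelial markers (87.4 TPM) were the lowest. It was also the lowest of the 12 for 7 of the 10 family genes. Values without it are given beside many of the results that it moved. The RNA is from whole wound tissue, in which fewer cells of a type and less RNA per cell cannot be told apart.

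The members spanned a wide range of levels. By the mean over the 12 libraries, on the TPM scale, Socs3 was the most abundant (179 TPM), followed by Il6st (92.1 TPM), Osmr (47.6 TPM), Il6ra (43.7 TPM), Clcf1 (18.9 TPM) and Lifr (13.2 TPM). The cytokines Lif (6.44 TPM), Osm (5.97 TPM), Il6 (5.07 TPM) and Il11 (2.19 TPM) were the least abundant. Not all neighbours in this order differed beyond their spread. Osmr exceeded Il6ra in 5 of 12 libraries, Lif exceeded Osm in 6 of 12, and Osm exceeded Il6 in 8 of 12, whereas Socs3 exceeded Il6st and Il6st exceeded Osmr in 12 of 12. The cytokine genes Il6, Osm and Lif varied most between libraries. The highest library exceeded the lowest by 10.7-fold for Il6, 8.42-fold for Osm and 6.29-fold for Lif, against 3.54-fold for Socs3 and between 1.44-fold (Il6ra) and 2.51-fold (Osmr) for the other 6, among them the cytokine genes Clcf1 (2.5-fold) and Il11 (2.11-fold).

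Several members are neighbours in the genome (GRCm38). Osm (chromosome 11, 4236420 to 4241026) and Lif (chromosome 11, 4257557 to 4272514) lie on the same strand, 16530 bases apart. Osmr (chromosome 15, 6813577 to 6874969) and Lifr (chromosome 15, 7090614 to 7197489) lie on opposite strands, 215644 bases apart. No protein-coding gene is annotated between either pair. Il6 is on chromosome 5 (30013114 to 30019981), Il6st on chromosome 13 (112464070 to 112510086), Il6ra on chromosome 3 (89864059 to 89913196), Il11 on chromosome 7 (4772373 to 4782859), Clcf1 on chromosome 19 (4214238 to 4223490) and Socs3 on chromosome 11 (117966079 to 117970047). Clcf1 overlaps the protein-coding gene AC109138.7 on the same strand and shares 7.33% of its 31-base stretches with other genes, most with AC109138.7, and how reads were split between this pair is uncertain. Il11 shares 5.15% of its stretches, and Il6ra overlaps the antisense gene Gm42809, whose reads cannot be told from those of Il6ra unless strand was used in counting, which is not stated.

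The promoters of Il6, Lif and Socs3 are shown because their genes varied together across the libraries, as described further on, and because each holds a letter pattern of a transcription factor of this response. Sequences are from RefSeq (GRCm38.p6), 5′ to 3′ along the strand of the gene, with capitals for the matched letters. They end before any annotated exon of the gene. The Socs3 stretch, before its RefSeq start site, still lies inside the annotated Socs3 locus (117966079 to 117970047), so it may be transcribed from a start site further upstream. The Il6 stretch (chr5:30012864-30013113, plus strand, 250 bases before the start site) holds TGANTCA, the pattern of AP-1, at -249. The Lif stretch (chr11:4257318-4257556, plus strand) holds TGANTCA at -228, and the Socs3 stretch (chr11:117969452-117969616, minus strand) holds TTCNNNGAA, the pattern bound by STAT factors, at -154.
Il6: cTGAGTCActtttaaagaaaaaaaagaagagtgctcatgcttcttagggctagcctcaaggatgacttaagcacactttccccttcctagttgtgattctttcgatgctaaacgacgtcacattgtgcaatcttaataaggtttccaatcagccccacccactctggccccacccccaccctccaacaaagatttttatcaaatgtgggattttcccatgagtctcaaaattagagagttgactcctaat
Lif: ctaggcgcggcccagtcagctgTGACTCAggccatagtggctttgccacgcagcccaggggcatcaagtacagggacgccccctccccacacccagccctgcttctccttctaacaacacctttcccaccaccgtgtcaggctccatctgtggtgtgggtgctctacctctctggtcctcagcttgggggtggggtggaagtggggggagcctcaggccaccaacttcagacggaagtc
Socs3: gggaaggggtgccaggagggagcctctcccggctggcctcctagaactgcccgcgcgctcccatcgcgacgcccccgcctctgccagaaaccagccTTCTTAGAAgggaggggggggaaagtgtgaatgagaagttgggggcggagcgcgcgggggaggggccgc
Both strands were searched over 250 bases before to 50 bases after each start site, and the matches do not overlap each other. Promoters were found in the reference table for 8 of the 10 members (10 promoters, with a second start site for Lifr and Il11), and not for Osm and Clcf1. TTCNNNGAA was present for 1 of the 8 members (Socs3) and in 8.30% of all 32851 promoters. TGANTCA was present for 4 of the 8 (Il6, Lif, Osmr and Il11) and in 7.81% of all promoters. The members were counted by gene and the shares by promoter, which are unlike measures. Il11 held TGANTCA at only 1 of its start sites, and the match of Osmr lay after the start site. Such matches are descriptions of the letters and were not tested as binding sites.

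**Figure D1:**
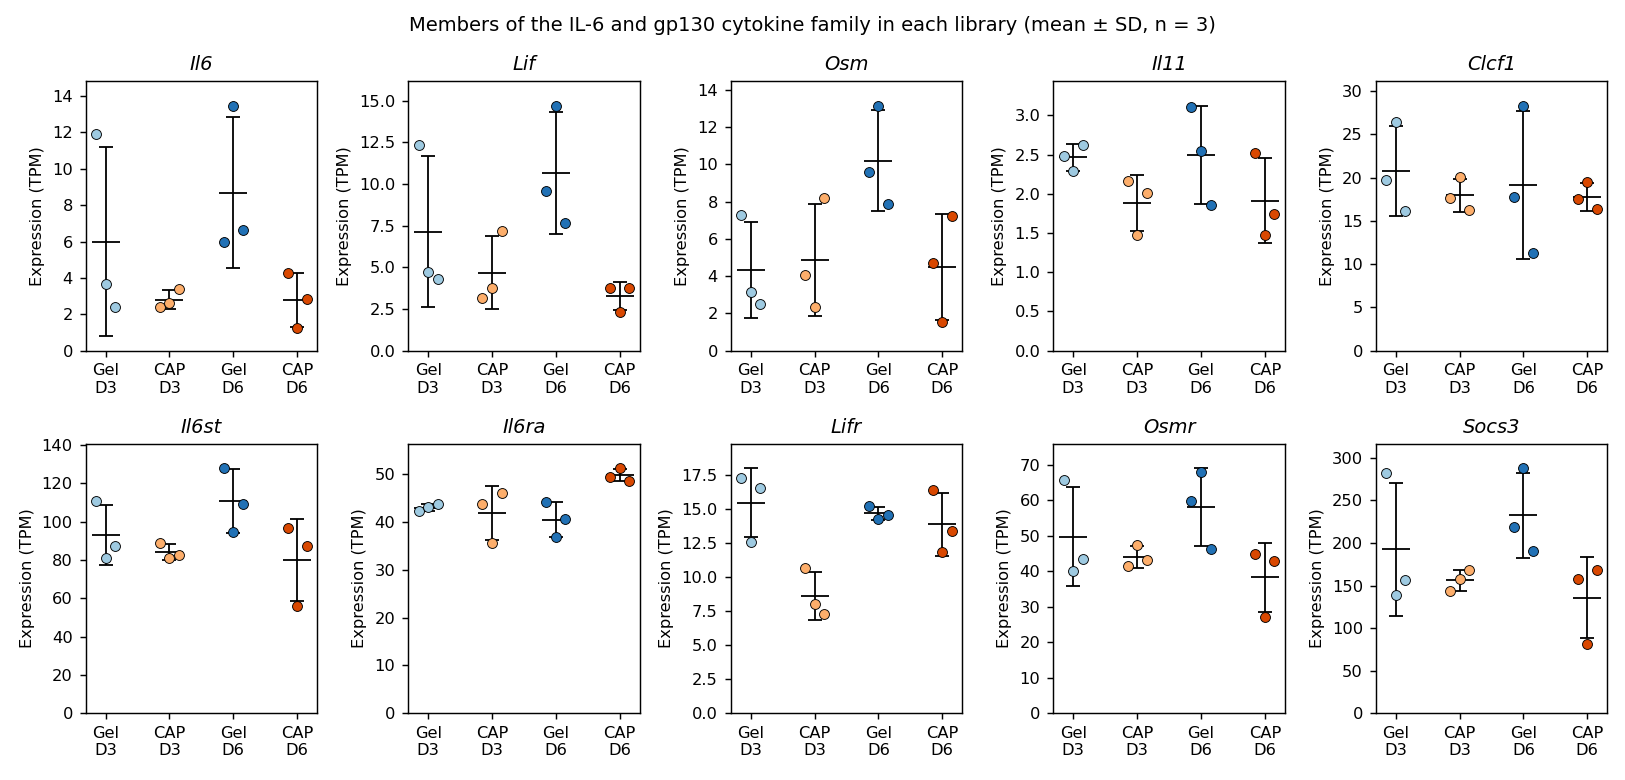
Expression (TPM, linear axis from 0) of the 10 members in the 12 libraries, as points by group (Gel, P-F127 alone; CAP, capsaicin in the gel; D3, Day 3; D6, Day 6), with bars for the mean ± SD of 3 libraries. At Day 6 the points of Il6, Lif and Osm in sham wounds (5.95 to 13.5, 7.64 to 14.7 and 7.90 to 13.2 TPM) all sit above those of the CAP-treated wounds.

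CAP-treated and sham wounds were first compared at Day 6, to ask how CAP changed the family in the later of the 2 stages sampled. The ligand genes Il6, Lif and Osm were lower in CAP-treated wounds, at 0.315 (Il6), 0.321 (Lif) and 0.385 (Osm) of the sham level on the scale of the fit, and their groups did not overlap. The receptor chain Il6ra was slightly higher, and Socs3 and Osmr were lower by less than 2-fold. Il6, the founding cytokine of the family, stood at 5.95, 13.5 and 6.63 TPM in sham replicates 1 to 3 and at 4.27, 1.26 and 2.82 TPM in CAP replicates 1 to 3. The sham mean was 8.68 ± 4.16 TPM and the CAP mean 2.78 ± 1.51 TPM (SD, n = 3 each), and it fell by 1.66 on the log2 scale (standard error 0.49, unadjusted p = 0.0112 and adjusted p = 0.212 from limma). Lif, which encodes leukemia inhibitory factor, stood at 9.57, 14.7 and 7.64 TPM in sham wounds and at 3.78, 2.34 and 3.78 TPM in CAP-treated wounds. All 3 CAP-treated values were at or under 3.78 TPM and all 3 sham values at or above 7.64 TPM. Lif fell by 1.64 (standard error 0.30, unadjusted p = 9.37e-04 and adjusted p = 0.205 from limma). Osm, which encodes oncostatin M, a product of neutrophils, macrophages and T cells, stood at 9.57, 13.2 and 7.90 TPM in sham wounds and at 4.69, 1.56 and 7.25 TPM in CAP-treated wounds. CAP replicate 3 came within 1 TPM of the lowest sham library. Osm fell by 1.38 (standard error 0.52, unadjusted p = 0.0341 and adjusted p = 0.238 from limma).

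The other ligands did not pass the threshold, an unadjusted p under 0.05 with a difference of at least 2-fold. Il11, which encodes interleukin 11, stood at 3.10, 2.54 and 1.85 TPM in sham wounds and at 2.51, 1.47 and 1.75 TPM in CAP-treated wounds, and the groups overlapped (log2 difference -0.37, unadjusted p = 0.246 from limma). Clcf1, which encodes a cytokine that signals through gp130, LIFR and the CNTF receptor, stood at 17.7, 28.3 and 11.3 TPM in sham wounds and at 17.5, 19.5 and 16.3 TPM in CAP-treated wounds. The CAP-treated values of Clcf1 lay inside the range of the sham values (log2 difference -0.01, unadjusted p = 0.978 from limma), and the difference was 0.10 with median-ratio scaling and 0.12 with quantile normalization.

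The receptor chains did not move together at Day 6. Osmr, the oncostatin M chain, stood at 60.0, 68.0 and 46.3 TPM in sham wounds and at 45.0, 27.1 and 43.0 TPM in CAP-treated wounds. The groups of Osmr did not overlap, and the difference on the log2 scale, -0.62 with a standard error of 0.23 (unadjusted p = 0.0319 from limma), stayed short of 2-fold. Il6st, the shared gp130 chain, stood at 128, 94.9 and 109 TPM in sham wounds and at 96.8, 56.2 and 87.5 TPM in CAP-treated wounds, where CAP replicate 1 exceeded the lowest sham library (log2 difference -0.49 with a standard error of 0.22, unadjusted p = 0.0598 from limma). The difference of Il6st was -0.26 without CAP replicate 2. Lifr stood at 15.2, 14.3 and 14.6 TPM against 16.4, 11.9 and 13.4 TPM, and the 3 tightly grouped sham libraries lay inside the range of the CAP-treated ones (log2 difference -0.09, and 0.01 and 0.05 with median-ratio scaling and quantile normalization). Il6ra, the chain that binds IL-6 itself, ran the other way. It stood at 44.0, 36.7 and 40.6 TPM in sham wounds and at 49.4, 51.1 and 48.6 TPM in CAP-treated wounds. Every CAP-treated library was above every sham library, and the log2 value was higher by 0.30 with a standard error of 0.10 (unadjusted p = 0.0215 and adjusted p = 0.226 from limma), well under 2-fold.

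Socs3, the feedback inhibitor that STAT3 induces, stood at 219, 288 and 191 TPM in sham wounds and at 158, 81.3 and 169 TPM in CAP-treated wounds. The groups did not overlap, with means of 233 ± 49.8 and 136 ± 47.7 TPM (SD, n = 3 in each group). On the log2 scale Socs3 differed by -0.82 with a standard error of 0.30 (unadjusted p = 0.0279 and adjusted p = 0.231 from limma), short of 2-fold.

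Counted over the family at Day 6, 3 of 10 genes were lower past the threshold and 0 higher, where 2.34% of the 18323 genes tested were lower past it. For 6 of 10 members the unadjusted p was under 0.05, as for 19.2% of all genes. The groups of 5 members did not overlap with CAP lower (18.0% of all genes) and those of 1 member with CAP higher (8.01%). The exact permutation test, 2-sided, gave p = 0.1 for each of these 6, the smallest that 3 libraries against 3 allow. Of the 10 log2 differences, 9 were below 0, as were 65.7% of all genes, and with median-ratio scaling or quantile normalization Lifr and Clcf1 were above 0. The median was -0.55 over the members (-0.32 without CAP replicate 2) and -0.12 over all genes. After Benjamini-Hochberg adjustment in limma, 0 of the 18323 genes were under 0.05, with 3517 at an unadjusted p under 0.05, and without CAP replicate 3 that 0 became 1430, Lif among them (adjusted p = 0.0389). Scaling shifted the median of all genes at Day 6 to -0.02 (median-ratio) or to 0 within rounding (quantile), and the genes past the threshold went from 268 higher and 429 lower to 384 and 310, or 406 and 244. Relative to this shift the 3 ligands remained past the threshold, with log2 differences under quantile normalization of -1.49 for Il6, -1.45 for Lif and -1.20 for Osm.

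Single libraries decided Osm but not Il6 or Lif. Without CAP replicate 2 the log2 differences were -1.20 for Il6 (unadjusted p = 0.0212 from limma) and -1.41 for Lif (unadjusted p = 0.00227), both still past the threshold, whereas Osm had -0.77 and fell short of 2-fold. Osm also fell short without sham replicate 1 (-1.41, unadjusted p = 0.0705 from limma) and without sham replicate 2 (-1.18, unadjusted p = 0.104). Without CAP replicate 2 Socs3 stood at -0.49 and Osmr at -0.38, and without CAP replicate 3 Socs3 stood at -1.02 and passed, which made 4 members. Il6ra stood at 0.28 without CAP replicate 2, and leaving out each library in turn gave 0.23 to 0.36, with unadjusted p of 0.0199 to 0.0722 from limma.

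**Figure D2:**
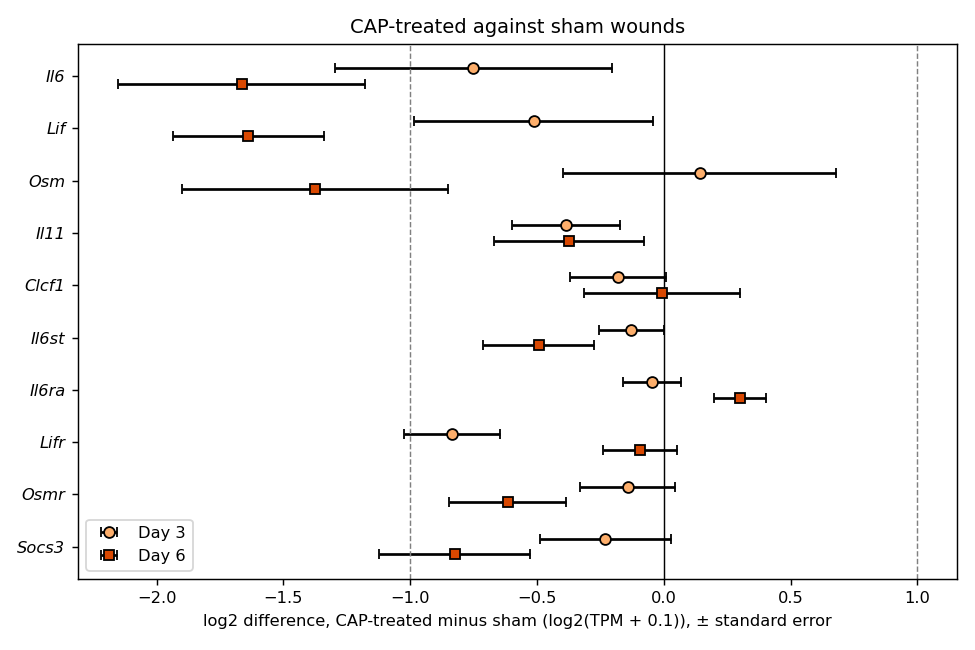
Log2 difference of CAP-treated minus sham wounds for the 10 members (x axis, on the scale log2(TPM + 0.1)), as circles for Day 3 and squares for Day 6 with bars of 1 standard error, and dashed lines at 2-fold. Il6, Lif and Osm lie beyond the 2-fold line at Day 6 (-1.66, -1.64 and -1.38), and Lifr is the lowest member at Day 3 (-0.84).

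Of the cell type sums at Day 6, only those of keratinocytes and endothelial cells were apart between the groups. The keratinocyte sum was 32309 to 40066 TPM in sham wounds and 50152 to 104374 TPM in CAP-treated wounds. These sums did not overlap, and 3 of 8 genes were higher past the threshold (1.46% of all genes). Krt1 stood at 4010 to 6224 TPM in sham wounds and at 12748 to 29718 TPM in CAP-treated wounds. Krt10 stood at 7432 to 8321 against 16989 to 40801 TPM. Krt5 and Lor were also apart, whereas Krt14, Krt6a, Krt16 and Krt17 overlapped, and 2 of the 8 log2 differences were below 0. The neutrophil sum was 1917 to 3545 TPM in sham wounds and 357 to 2760 TPM in CAP-treated wounds (1 of 8 genes tested lower), with Elane under 0.3 TPM in every library of both groups. S100a8 and S100a9 made up most of this sum. Of the CAP-treated libraries, replicate 1 was the highest for S100a8, S100a9 and Camp. Replicate 3 was the highest for Csf3r (37.1, 26.0 and 142 TPM in replicates 1 to 3), Mmp8 (7.26, 3.11 and 41.1 TPM), Cxcr2, Mmp9, Retnlg and Ngp. The macrophage sum was 1801 to 2062 against 849 to 1843 TPM (1 of 8 genes lower), and the endothelial sum was 260 to 344 against 87.4 to 231 TPM without overlap (2 of 6 genes lower). For fibroblasts the sums were 19905 to 26522 and 15948 to 21796 TPM (0 of 8 genes), and for T and NK cells they were 51.3 to 95.5 and 65.3 to 79.0 TPM (0 of 7 genes tested). Of the muscle, erythroid and adipocyte markers, 1 of 6 muscle genes was lower, 0 of 5 erythroid genes passed, and 1 of 6 adipocyte genes was higher. The part of these cell types in the differences of Il6, Lif, Osm, Osmr, Socs3 and Il6ra was not tested.

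**Figure D3:**
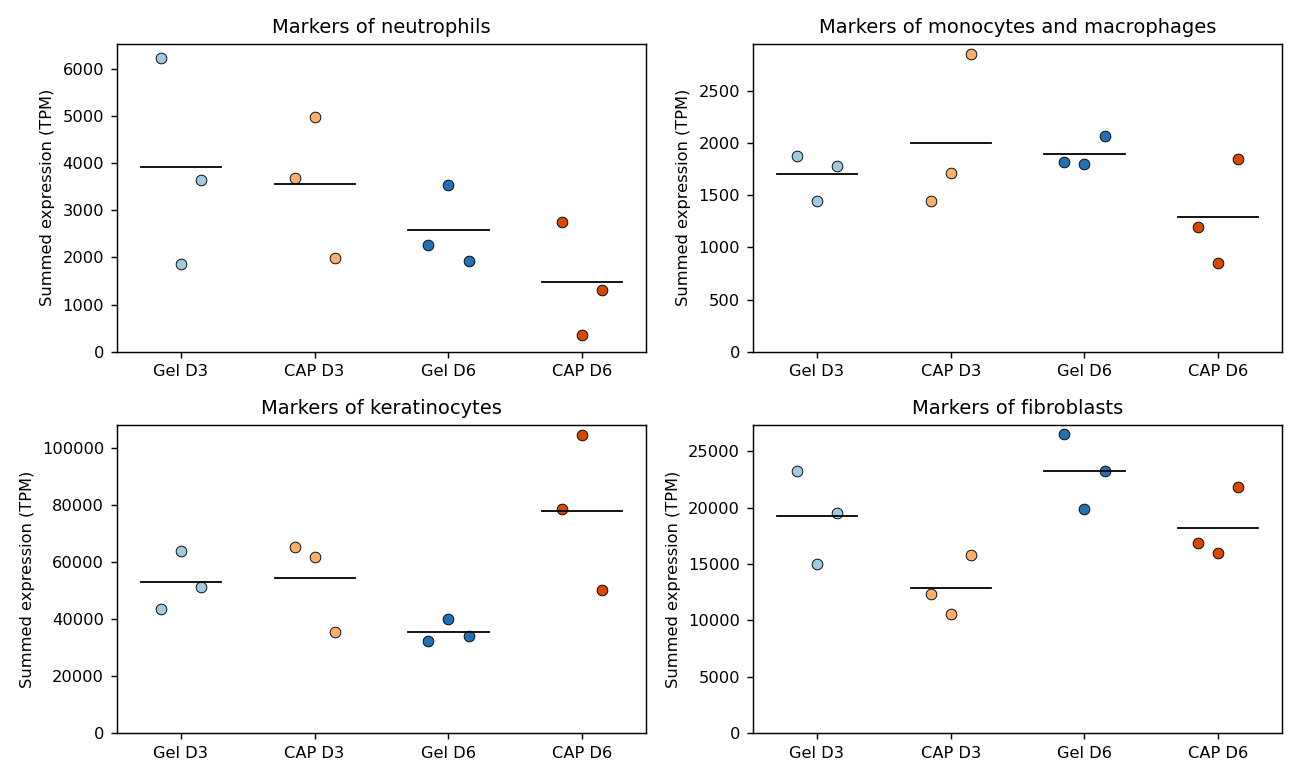
Summed expression (TPM, linear axis from 0) of the marker genes of neutrophils, monocytes and macrophages, keratinocytes and fibroblasts in each library, with a line for the group mean (Gel, P-F127 alone; D3, Day 3; D6, Day 6). At Day 6 the keratinocyte sums of CAP-treated wounds (50152 to 104374 TPM) all lie above those of sham wounds (32309 to 40066 TPM), and CAP replicate 2 is the lowest for neutrophils (357 TPM). In that replicate Krt1 and Krt10 stood at 29718 and 40801 TPM.

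At Day 3, the earlier of the days, no member passed the threshold between CAP-treated and sham wounds, where 1.58% of the 18330 genes tested did, and 1 of 10 (Lifr) had an unadjusted p under 0.05 in limma, against 6.60% of all genes. Lifr, whose product is the signalling chain for leukemia inhibitory factor, stood at 17.3, 12.6 and 16.6 TPM in sham wounds and at 10.6, 8.02 and 7.29 TPM in CAP-treated wounds. The groups of Lifr were clearly apart. The sham mean was 15.5 ± 2.53 TPM and the CAP mean 8.65 ± 1.77 TPM (SD, n = 3 each), and on the log2 scale it differed by -0.84 with a standard error of 0.19 (unadjusted p = 0.00331 and adjusted p = 0.50 from limma). It lay between -0.99 and -0.72 whichever library was left out, always with an unadjusted p under 0.05 and always short of 2-fold. The fibroblast sum at Day 3 was 14992 to 23285 TPM in sham wounds and 10559 to 15803 TPM in CAP-treated wounds, and the log2 difference was below 0 for 8 of 8 fibroblast genes, with 0 past the threshold. Its part in the difference of Lifr was not tested. Il11 was the other member without overlap, at 2.48, 2.29 and 2.63 TPM in sham wounds and 2.16, 1.47 and 2.01 TPM in CAP-treated wounds (log2 difference -0.39, unadjusted p = 0.114 from limma). These 2 of 10 compare with 8.75% of all genes whose groups did not overlap with CAP lower. The exact permutation test gave p = 0.1 for both, its smallest value. Of the other markers at Day 3, 5 of 5 erythroid genes tested were higher with CAP (0.426% of all genes). The erythroid sums were 514 to 753 TPM in sham wounds and 2357 to 2803 TPM in CAP-treated wounds. Of 7 neutrophil genes tested 1 was higher. For macrophages 1 of 8 genes and for T and NK cells 2 of 7 genes were lower (1.16% of all genes). No keratinocyte, endothelial, muscle or adipocyte gene passed.

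The cytokines that were lower at Day 6 overlapped between the groups at Day 3. In sham wounds replicate 1 stood above the other 2 libraries, with 12.4 TPM of Lif against 4.73 and 4.31, 7.28 TPM of Osm against 3.15 and 2.53, and 283 TPM of Socs3 against 139 and 156. This library was the highest of its group for 7 of the 10 members and had the highest neutrophil sum of all libraries (6234 TPM). In CAP-treated wounds at Day 3, Lif stood at 3.14, 3.77 and 7.16 TPM, Osm at 4.07, 2.35 and 8.19 TPM and Socs3 at 143, 158 and 168 TPM. Here replicate 3 was the highest library for these 3 genes, and its macrophage sum (2849 TPM) was the highest of the 12. The log2 differences were -0.51 for Lif, 0.14 for Osm and -0.23 for Socs3, with unadjusted p from 0.312 to 0.799 in limma. The log2 difference of Il6, -0.75 (unadjusted p = 0.213 from limma), turned on single sham libraries. It was -0.10 without sham replicate 1 and -1.23, past the threshold with an unadjusted p of 0.0499 from limma, without sham replicate 3.

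The remaining receptor chains and Clcf1 differed little at Day 3. Osmr stood at 65.8, 40.2 and 43.4 TPM in sham wounds and 41.6, 47.4 and 43.2 TPM in CAP-treated wounds, Il6st at 111, 81.2 and 87.3 against 89.1, 81.3 and 82.7 TPM, and Il6ra at 42.1, 43.1 and 43.6 against 43.8, 35.5 and 46.1 TPM. Clcf1 stood at 19.7, 26.4 and 16.1 against 17.6, 20.0 and 16.3 TPM. All 4 overlapped between the groups, with log2 differences from -0.18 (Clcf1) to -0.05 (Il6ra, 0.0064 with median-ratio scaling). In all, 9 of 10 members had a log2 difference below 0, as did 62.2% of all genes, with a median of -0.21 over the members and -0.05 over all genes. The median of the members was -0.049 without sham replicate 1, -0.35 without sham replicate 2 and -0.34 without sham replicate 3.

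The time course within each treatment was compared next. In sham wounds, Osm was higher at Day 6 than at Day 3 and was the only member past the threshold (1 of 10, against 2.75% of 19123 genes higher). Its values of 7.28, 3.15 and 2.53 TPM at Day 3 and 9.57, 13.2 and 7.90 TPM at Day 6 did not overlap (1 of 10 members, against 11.2% of all genes higher without overlap). Osm rose by 1.34 on the log2 scale (standard error 0.39, unadjusted p = 0.0103 and adjusted p = 0.144 from limma). Il6 (log2 difference 0.76) and Lif (0.69) had overlapping groups, with sham replicate 1 of Day 3 (11.9 and 12.4 TPM) inside the range of the Day 6 libraries. Without that library Il6 (1.42, unadjusted p = 0.00879 from limma) and Lif (1.17, unadjusted p = 0.00465) also passed, which made 3 of 10. The neutrophil sum was 1854 to 6234 TPM at Day 3 and 1917 to 3545 TPM at Day 6 (3 of 8 genes higher). It was mostly S100a8 and S100a9, and 6 of the 8 log2 differences were above 0. Ngp, 1 of these 8 genes, was under 0.3 TPM in every sham library of Day 3. It passed the filter only through Day 6 (0.356, 1.42 and 1.54 TPM), so its direction in these counts was fixed in advance. The macrophage sum was 1445 to 1871 and 1801 to 2062 TPM (0 of 8 genes higher and 1 of 8 lower, against 1.98% of all genes lower). The monocyte marker Ly6c2 went against the sum, from 53.9, 87.0 and 79.8 TPM at Day 3 to 18.7, 17.1 and 13.9 TPM at Day 6. Other sums separated the days. Endothelial sums (110 to 139 and 260 to 344 TPM, 4 of 6 genes higher) were higher at Day 6. So were erythroid sums (514 to 753 and 2113 to 5622 TPM, 5 of 5 genes tested). The T and NK cell sum was also higher (29.9 to 35.9 and 51.3 to 95.5 TPM). There, 1 of 7 genes tested was higher, and 3 of the 7 log2 differences were below 0. Cd4 went from 9.75, 7.68 and 6.19 TPM to 55.1, 22.3 and 47.7 TPM. Keratinocyte sums (43515 to 63733 and 32309 to 40066 TPM) were lower, with 1 of 8 genes lower and 2 of 8 log2 differences above 0. The part of these cell types in the rise of Osm was not tested. Il6st, Osmr and Socs3 had log2 differences of 0.25, 0.24 and 0.32, and Il6ra, Lifr, Il11 and Clcf1 lay between -0.18 and -0.01.

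In CAP-treated wounds no member passed the threshold between Day 6 and Day 3 (3.52% of 18906 genes did), and 1 of 10 had an unadjusted p under 0.05 in limma, against 12% of all genes (2270 of 18906). Lifr went from 10.6, 8.02 and 7.29 TPM to 16.4, 11.9 and 13.4 TPM without overlap (log2 difference 0.68 with a standard error of 0.19, unadjusted p = 0.0104 and adjusted p = 0.307 from limma). At Day 6 its CAP-treated libraries were thus at the level of the sham wounds of both days, 12.6 to 17.3 TPM, apart from replicate 2. The fibroblast sum of CAP-treated wounds was 10559 to 15803 TPM at Day 3 and 15948 to 21796 TPM at Day 6, also without overlap (0 of 8 genes past the threshold), and its part in the difference of Lifr was not tested. Il6ra was also higher without overlap (35.5 to 46.1 TPM at Day 3 and 48.6 to 51.1 TPM at Day 6, log2 difference 0.26, unadjusted p = 0.0740 from limma), so that 2 of 10 members were higher without overlap, against 8.24% of all genes. Il6 lay between 1.26 and 4.27 TPM in the 6 CAP-treated libraries of both days, with a log2 difference of -0.15 that was 0.31 without CAP replicate 2 of Day 6.

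**Figure D4:**
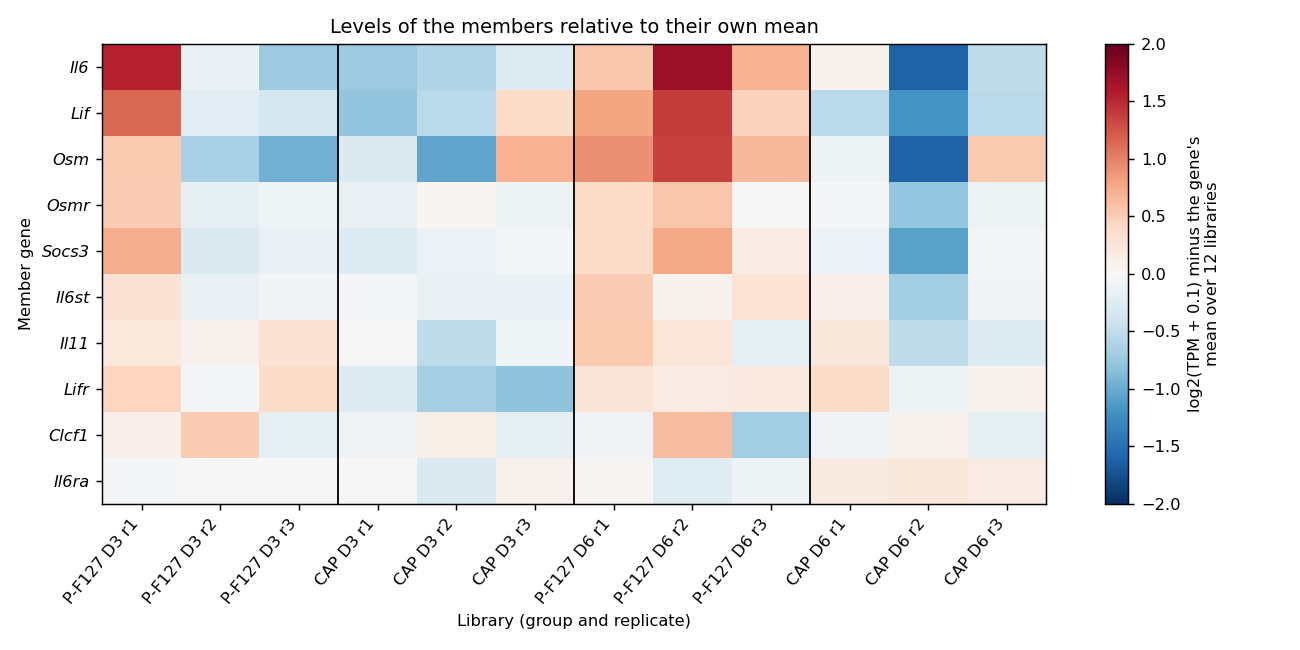
Level of each member (rows) in each library (columns, in the order sham and CAP at Day 3, then sham and CAP at Day 6), as log2(TPM + 0.1) minus the mean of the gene over 12 libraries, with red above and blue below that mean. Sham replicate 1 of Day 3 and the 3 sham libraries of Day 6 are red for Il6, Lif and Osm, and CAP replicate 2 of Day 6 is the lowest library for 7 members and the highest for Il6ra (51.1 TPM).

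Whether the effect of CAP differed between the days was tested in a single fit of all 12 libraries. No member passed the threshold (4.60% of 19046 genes did), and 2 of 10 had an unadjusted p under 0.05 in limma, against 11.4% of all genes. These were Lifr, lower with CAP at Day 3 and near the sham level at Day 6 (difference of effects 0.74, standard error 0.24, unadjusted p = 0.0115 and adjusted p = 0.423 from limma), and Il6ra (0.35, standard error 0.15, unadjusted p = 0.0378 and adjusted p = 0.425 from limma). For the 3 ligands that were lower at Day 6 the difference of effects was -0.91 for Il6, -1.12 for Lif and -1.52 for Osm, with unadjusted p of 0.283, 0.0928 and 0.0958 from limma, so the fall at Day 6 was not shown to differ from the effect at Day 3. Without sham replicate 1 of Day 3 all 3 passed (-1.57, -1.60 and -1.96), and Osm alone passed without CAP replicate 2 of Day 3 (-1.94) or without CAP replicate 3 of Day 6 (-1.98). Other alternatives weakened these differences, to -0.44 for Il6, -0.78 for Lif and -0.91 for Osm at the weakest. The unadjusted p from limma then reached up to 0.586, 0.218 and 0.234. Without CAP replicate 2 of Day 6 no member passed, and the median over the members was -0.18, against -0.42 with all libraries. The comparisons share libraries, since the sham wounds of Day 6 serve both the CAP comparison of that day and the time course.

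Some members varied together from library to library, and others did not. Across the 12 libraries, Osmr and Socs3 had a Pearson's r of 0.98 on the log2 scale, and 0.96 after the mean of each group was taken away. Among the 16169 genes whose mean reached 1 TPM, Osmr was the gene most like Socs3, followed by Jak2 (0.96), the kinase bound to gp130, Il1r1 (0.95), the IL-1 receptor, Slc39a14 (0.95), a zinc transporter, and Sema6b (0.95). Il6 correlated with Lif (0.93), Socs3 (0.93) and Osmr (0.90). The 5 genes most like Il6 were Zfp958, Rnd1, Cxcl1, Pafah1b2 and Lif, with r from 0.93 to 0.95, where Cxcl1 encodes a chemokine that attracts neutrophils. Those most like Osm were Smad4, Desi2, Pde3b, Gm15832 and Il1b, with r from 0.94 to 0.96, where Il1b encodes interleukin 1 beta. Il6ra and Osmr had an r of -0.60, and -0.35 after the group means were taken away. Clcf1 had an r of -0.28 to 0.21 with the other 9 members, and Lifr stood at 0.21 with Osm, 0.29 with Lif, 0.34 with Osmr and 0.35 with Socs3. These values describe 12 libraries that share 4 groups and their cell makeup, and no p is given for them.

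Genes known to be induced by STAT3 or by IL-6-type cytokines were examined next, as a list of 19. The list was set with earlier results of these data known. At Day 6, 5 of the 19 were lower in CAP-treated wounds past the threshold (2.34% of all genes), 0 were higher, and 17 had a log2 difference below 0. The median was -0.82, against -0.12 over all genes. Timp1, an inhibitor of metalloproteinases, stood at 881, 727 and 592 TPM in sham wounds and at 169, 49.6 and 430 TPM in CAP-treated wounds. The groups were apart, though CAP replicate 3 was far above replicate 2, and Timp1 fell by 2.24 on the log2 scale (standard error 0.70, unadjusted p = 0.0150 and adjusted p = 0.217 from limma). Ccl2, a chemokine that attracts monocytes, stood at 47.3, 47.7 and 29.7 against 21.3, 11.8 and 11.2 TPM, and fell by 1.52 (standard error 0.30, unadjusted p = 0.00135 and adjusted p = 0.205 from limma). Icam1, an adhesion molecule for leukocytes, stood at 67.1, 64.2 and 58.5 against 32.4, 21.3 and 38.4 TPM, and fell by 1.08. Both had every CAP-treated library under every sham library. The acute-phase gene Saa3 stood at 2704, 2008 and 1993 against 1233, 238 and 1297 TPM, and fell by 1.61. Lrg1, another acute-phase gene, stood at 137, 119 and 113 against 85.0, 21.9 and 79.9 TPM, and fell by 1.21. The unadjusted p from limma was 0.00141 for Icam1, 0.0374 for Saa3 and 0.0436 for Lrg1.

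The list depended on the same library as the members. Without CAP replicate 2 the median was -0.37, 18 were below 0 and 2 of 19 passed, Timp1 with a log2 difference of -1.43 and Ccl2 with -1.39. The other 3 were then short of 2-fold, with -0.84 for Icam1, -0.81 for Saa3 and -0.57 for Lrg1. Without sham replicate 1 or sham replicate 2 the number was 3, without CAP replicate 1 it was 8, and with either scaling it was 4. At Day 3, by contrast, 0 of 18 tested genes passed, 8 were below 0 and the median was 0.01. In sham wounds, 3 of the 18 genes over the filter in all 4 groups were higher at Day 6 than at Day 3 (2.75% of all genes): Saa3 (1.08), Lrg1 (1.06) and Hp (1.30, adjusted p = 0.0313 from limma), which encodes haptoglobin. Without sham replicate 2 of Day 3, or without sham replicate 1 of Day 6, Hp alone passed. Reg3g, an antimicrobial lectin of the epidermis, was under the filter at Day 3 and over it at Day 6 (0.213, 0.178 and 0.179 TPM, then 6.69, 3.37 and 9.38 TPM), so its change over time is given with no test. In CAP-treated wounds 1 of the 18 (Ccl2, which fell by 2.37) was lower at Day 6 (1.90% of all genes), and 2 were lower without CAP replicate 1 of Day 6 (Il4ra and Ccl2) or without replicate 3 (Timp1 and Ccl2). The difference between the effects of the days passed for 3 of the 18, all lower (2.54% of all genes): Ccl2 (-1.64), Icam1 (-1.07) and Batf (-1.13), a transcription factor of lymphoid cells. Ccl2 alone passed without CAP replicate 2 of Day 3 or without CAP replicate 2 of Day 6. Icam1 fell short without sham replicate 3 of Day 3, and Batf without sham replicate 2 or CAP replicate 3 of Day 3.

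**Figure D5:**
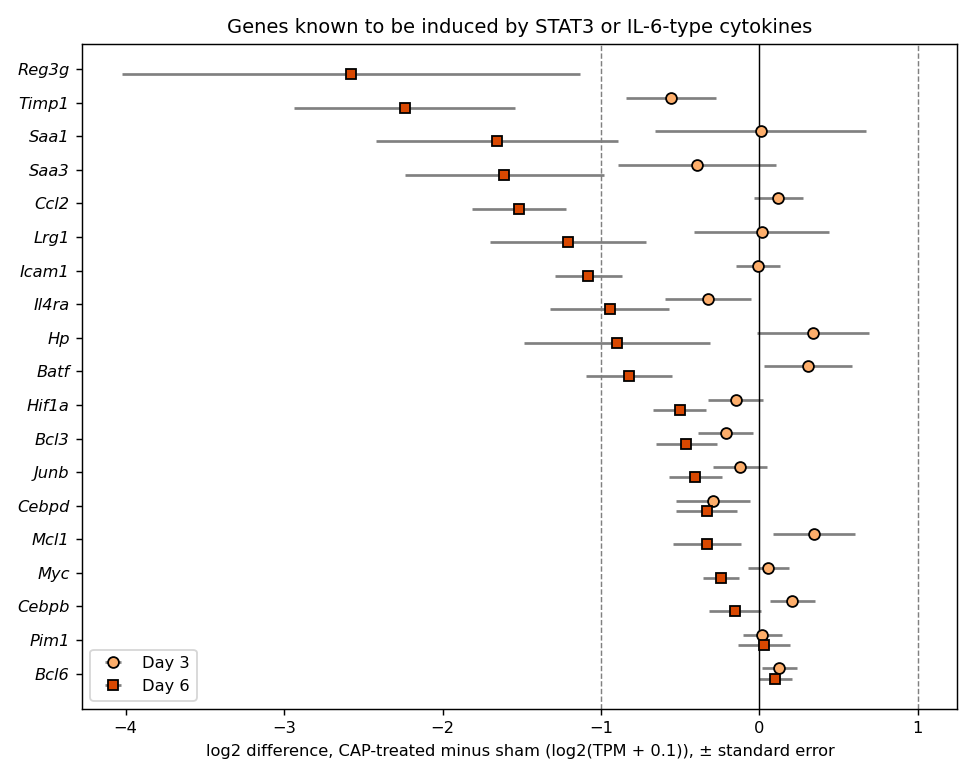
Log2 difference of CAP-treated minus sham wounds (x axis, on the scale log2(TPM + 0.1)) for the 19 genes known to be induced by STAT3 or IL-6-type cytokines, as circles for Day 3 and squares for Day 6 with bars of 1 standard error, and dashed lines at 2-fold. At Day 6, 17 of the 19 lie below 0, with Timp1 at -2.24, and at Day 3 they scatter about 0 (Reg3g was not tested at Day 3).

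The other genes of the pathway were counted in the same way. Of 11 further gp130-family ligands and receptors, 9 were tested and 0 passed between CAP-treated and sham wounds at either day, with medians of -0.14 at Day 3 and -0.22 at Day 6. Ctf2 was listed at 0 in every library and Il31 in all but 1, and neither was tested. Il11ra1, the receptor chain of interleukin 11, stood at 180, 115 and 148 TPM in sham wounds and at 102, 47.6 and 116 TPM in CAP-treated wounds at Day 6 (log2 difference -0.81, unadjusted p = 0.050 from limma), and without CAP replicate 3 it passed, while without CAP replicate 2 it had -0.42. Ctf1, the ligand cardiotrophin 1, was higher with CAP at Day 6, past the threshold, without sham replicate 1. Il31ra, a chain of the IL-31 receptor that binds OSMR, was lower at Day 6 than at Day 3 in CAP-treated wounds (2.28, 1.47 and 1.26 TPM against 0.817, 0.749 and 0.621 TPM, a fall of 1.06 on the log2 scale). It was the single gene of this list past the threshold there, 0 passed without CAP replicate 1 of Day 3 or without CAP replicate 3 of Day 6, and in sham wounds its log2 difference was -0.89 (unadjusted p = 0.0120 from limma), short of 2-fold.

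Of 10 genes that carry the signal from gp130 (kinases such as Jak1, Jak2 and Tyk2, the factor Stat3 and adaptors such as Grb2 and Gab1), 0 passed in any of the 5 comparisons, with medians of -0.07 at Day 3 and -0.24 at Day 6 (-0.13 without CAP replicate 2) between CAP-treated and sham wounds. Stat3 stood at 233, 224 and 174 TPM in sham wounds and at 208, 150 and 179 TPM in CAP-treated wounds at Day 6, with overlap. Jak2 stood at 44.0, 49.7 and 41.6 against 35.1, 22.6 and 33.8 TPM without overlap, and on the log2 scale it differed by -0.59 with a standard error of 0.18 (unadjusted p = 0.0156 from limma), and by -0.38 without CAP replicate 2. The 7 other feedback inhibitors (Socs1, Socs2, Cish, Pias1, Pias3, Ptpn2 and Ptpn6) and the proteases that shed the IL-6 receptor (Adam10 and Adam17) also gave 0 genes past the threshold in the 5 comparisons, with medians at Day 6 of -0.30 and -0.19 (-0.26 and -0.046 without CAP replicate 2). The upstream cytokines Il1b and Tnf, which induce Il6 in many cells, were higher at Day 6 than at Day 3 in sham wounds. Il1b stood at 160, 52.6 and 33.1 TPM and then at 181, 254 and 125 TPM (a rise of 1.45, unadjusted p = 0.0325 from limma), and Tnf at 5.53, 5.13 and 3.63 TPM and then at 9.36, 13.7 and 9.0 TPM (a rise of 1.15, unadjusted p = 0.00130 from limma). Without sham replicate 3 of Day 3, or without sham replicate 2 of Day 6, neither passed, and without sham replicate 2 of Day 3 or sham replicate 1 of Day 6 Tnf alone passed. Between CAP-treated and sham wounds at Day 6 the 3 upstream cytokines had a median of -1.12 (-0.51 without CAP replicate 2) with 0 past the threshold, Il1b at 69.8, 24.0 and 183 TPM and Tnf at 4.32, 2.0 and 12.4 TPM in CAP-treated wounds overlapping the sham values, and both passed without CAP replicate 3.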

How the data were processed

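Libraries were prepared by the authors from wound RNA with a SureSelect XT HS2 mRNA kit. Per the labels and the study's methods, the authors used bcl2fastq, Trimmomatic 0.36 and StringTie against mm10, and deposited TPM values, 1 table per library (sums of 1000003.08 to 1000003.23 TPM, 0.0001 in place of 0). The sources used here name no aligner, annotation or strand setting. Of the genes, 54814 have the coordinates of GENCODE M21 on GRCm38. Depth is unknown with TPM. No column was left without a sample (0).

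The scale was log2(TPM + 0.1), which understates changes of low genes. Genes whose mean reached 0.3 TPM in both groups (CAP comparisons), over the 6 libraries (time course) or over all 12 (difference of effects) were fitted with limma 3.58.1 (intensity trend) in R 4.3.3, with Benjamini-Hochberg adjustment over all genes tested. The threshold was an unadjusted p under 0.05 and at least 2-fold. Exact permutation tests were 2-sided. The fit was tested on simulated data. Python 3.11.15, pandas 2.3.3, numpy 2.4.6 and matplotlib 3.10.9 served for the rest.

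The members, gene lists and tests were chosen with earlier results of these data known. Named were all 10 members, list genes past the threshold (the 5 with the smallest p where more passed) and the 5 genes most like Il6, Osm and Socs3. Jak2, Stat3, Il11ra1, Ctf1, and Il1b and Tnf at Day 6 were named after their values were seen. Lists were genes of the pathway and markers of 9 cell types. Alternatives were 2 other pseudocounts, 2 other filters, a joint fit, a replicate block, 2 scalings, robust spread and leaving out each library. Those for the lists were chosen after seeing the data.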

Additional observations from a re-analysis of the deposited data

Results flagged for a closer look

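In each of these 5 genes the effect of CAP differed between Day 6 and Day 3 at an unadjusted p under 0.05 in limma, and none kept an adjusted p under 0.05 (0.423 to 0.425). Lifr had a difference of effects of 0.74 (unadjusted p = 0.0115), with CAP-treated wounds below all sham wounds at Day 3 only. Il6ra had 0.35 (unadjusted p = 0.0378), with CAP-treated wounds above all sham wounds at Day 6 only. Of the genes known to be induced by STAT3 or IL-6-type cytokines, Ccl2 had -1.64 (unadjusted p = 9.47e-04), Icam1 -1.07 (unadjusted p = 0.00231) and Batf -1.13 (unadjusted p = 0.0219), each with the CAP-treated wounds below all sham wounds at Day 6.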

How the results depend on the processing

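Of 800 values of single members under alternatives, 748 kept their direction and their side of the threshold, 39 changed sign, 9 passed it and 4 fell short. The number of members past the threshold was 0 to 1 without single libraries for CAP at Day 3, 2 to 4 for CAP at Day 6, 1 to 3 for sham wounds over time, 0 to 0 for CAP-treated wounds over time and 0 to 3 for the difference of effects, and the cause of these moves was not tested. With median-ratio scaling and quantile normalization, Lifr and Clcf1 for CAP at Day 6 came to 0.011 and 0.051, and to 0.10 and 0.12, and Clcf1 over time in CAP-treated wounds to 0.032 and 0.047. With median-ratio scaling Il6ra for CAP at Day 3 came to 0.0064. Where leaving out single libraries turned a sign, the log2 differences for CAP at Day 3 ran from -0.22 to 0.0024 (Il6st), -0.28 to 0.075 (Osmr), -0.43 to 0.083 (Socs3), -0.32 to 0.59 (Osm), -0.35 to 0.0073 (Clcf1) and -0.12 to 0.065 (Il6ra). For CAP at Day 6 they ran from -0.33 to 0.32 (Clcf1) and -0.22 to 0.011 (Lifr), and in sham wounds over time from -0.20 to 0.026 (Lifr), -0.52 to 0.14 (Clcf1) and -0.17 to 0.18 (Il11). In CAP-treated wounds over time they ran from -0.20 to 0.17 (Il11), -0.082 to 0.068 (Clcf1), -0.64 to 0.43 (Osm), -0.53 to 0.31 (Il6), -0.27 to 0.13 (Il6st) and -0.46 to 0.065 (Socs3), and for the difference of effects from -0.15 to 0.50 (Clcf1) and -0.19 to 0.18 (Il11). None of these members was past the threshold in that comparison.

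The labels number the replicates alike in every group. Libraries with the same number showed no strong shared deviation (r of -0.17 to 0.29, and not every pair above 0.1 in any comparison), so the numbers were not read as pairs. For CAP at Day 6 the r of same-numbered libraries was 0.032 to 0.12, and that of all other pairs was below 0. With the replicate block, 2 members passed for CAP at Day 6 (Osm had an unadjusted p of 0.0583), 1 for sham wounds over time and 0 in the other comparisons. The number of all genes past the threshold for CAP at Day 3 was 290 in the limma fit used for the results above. Of these, 78 were higher and 212 lower, and with quantile normalization 101 and 160. The number was 568 without a filter, 186 with a filter of 1 TPM and 154 with a pseudocount of 1 TPM. For CAP at Day 6 it was 385 with that pseudocount against 697. For sham wounds over time it was 444 with that pseudocount against 904, for CAP-treated wounds 331 against 666 and for the difference of effects 574 against 877. Without CAP replicate 2 it was 311 for CAP at Day 6, and without CAP replicate 3 it was 1483. In sham wounds over time, 470 genes had an adjusted p under 0.05 in limma, and 1 in the joint fit of 12 libraries.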
